A study of Mus musculus with 2 samples.

Results

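The 9 genes described here encode sensors of RNA and other nucleic acids (Ddx58, Ifih1, Dhx58, Zbp1 and Tlr3) and transcription factors of the interferon response (Irf1, Irf7, Irf9 and Stat2). They were chosen by symbol from the 32285 genes listed in both libraries, because earlier results on these same libraries had shown interferon-response genes to be lower in the knockout. The size of that difference is therefore a description and carries no test. Cells came from whole uteri of C57BL/6J female mice aged 6 months. The control group, Prickle1 f/f, carried floxed alleles of Prickle1, which encodes a planar cell polarity protein. The conditional knockout group (cKO), Prickle1 f/f Ltf-cre, carried the same floxed alleles and a Cre recombinase driven by Ltf (Ltf-iCre), the lactoferrin gene, which is active in epithelial cells of the adult uterus. There was 1 library a group, made from the pooled tissue of 3 mice and with no replicate, so genotype, animals, dissociation and library cannot be told apart. Both libraries also carry a genotype entry of wild-type, which differs from their titles, and the titles are followed here. Stage of the oestrous cycle is not given in the sources used here.

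Cells recognise viral or misplaced RNA through cytosolic helicases and endosomal receptors. RIG-I (Ddx58) and MDA5 (Ifih1) bind double-stranded RNA in the cytosol and signal through the adaptor MAVS, while LGP2 (Dhx58) lacks the signalling domains of the other two and modulates them. TLR3 (Tlr3) detects double-stranded RNA in endosomes, and ZBP1 (Zbp1) binds Z-form nucleic acids and can start necroptosis. Sensing leads to type I interferon, whose receptor activates the complex ISGF3. STAT2 and IRF9 are subunits of ISGF3, which binds interferon-stimulated response elements (ISRE) in target genes. IRF7 amplifies interferon production, and IRF1 is an early factor that responds strongly to interferon gamma through elements called gamma-activated sequences (GAS). Most of these genes are themselves interferon targets.

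Because most members differed in the same direction, their start regions were searched for letters of these 2 elements, with the RefSeq promoter windows of GRCm38.p6, which run from 250 bases before to 50 bases after a gene's start. Of the 9 members, 7 had a window in the table (9 windows in all). The ISRE-like pattern, GAAA then any 2 bases then GAAA on either strand, was present in 3 of these 9 windows, each of another member, against 3.44% of all 32851 windows. The GAS-like pattern TTCNNNGAA, which reads the same on both strands, was present in 1 of the 9, against 8.30% of windows. No stretch matched both patterns. The matched stretches are shown because they are the letters the response factors in this set are known to read, with the match in capitals and each written 5′ to 3′ on the gene's strand, so that a match on the other strand appears as TTTC, 2 bases and TTTC. They lie at chr4:40239804-40239833 (minus strand), chr2:62646206-62646233 (minus strand), chr10:128270266-128270295 (plus strand) and chr11:53769914-53769943 (plus strand).
Ddx58: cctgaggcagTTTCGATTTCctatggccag
Ifih1: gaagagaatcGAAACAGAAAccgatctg
Stat2: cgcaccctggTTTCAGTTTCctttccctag
Irf1: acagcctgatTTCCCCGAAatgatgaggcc
In Ddx58 and Ifih1 the match began at positions 2 and 32 after the RefSeq start, and in Stat2 and Irf1 at position -222 and position -90. The windows of Tlr3, Irf7 and Irf9 held neither pattern, which says only that these letters are not in these windows.

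The control library contained 45035801 unique molecular identifiers (UMIs, counts of captured transcripts) and the cKO library 57145553. Barcodes with at least 500 genes and at most 20% mitochondrial UMIs gave 3653 control and 4950 cKO cells, and 5 barcodes occurred in both sets. Cells were sorted into 6 gates by a UMI of Epcam (epithelial), Pdgfra (stromal), Actg2 (muscle), C1qa (macrophage), Flt3 (dendritic), or Cd3e or Ncr1 (lymphoid). Cells with UMIs of several gates (170 and 249) or of none (1185 and 1896) were left out. The epithelial gate held 961 control and 135 cKO cells, the stromal gate 623 and 1464, and the muscle gate 289 and 535. The macrophage gate held 228 and 110, the dendritic gate 42 and 134, and the lymphoid gate 155 and 427. In both libraries each gate had the highest summed level of its own marker list, although the dendritic marker Itgax in both libraries and H2-Aa and H2-Ab1 in cKO were highest in the macrophage gate. Dendritic-gated cells carried Ccr7, a marker of mature dendritic cells, at 4558 CPM (the gene's UMIs scaled to 1000000 UMIs of the gate) in control and 4394 CPM in cKO.

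The targeted gene had 15 UMIs in control epithelial cells (0.865 CPM) and 16 in cKO (3.93 CPM), both below the 1.55 and 5.69 CPM of cell-free barcodes, so the labels could not be checked from it. Reads from the 3′ end say nothing about a deleted exon upstream. The cKO epithelial gate was less pure than that of control: its stromal marker list summed to 3069 CPM against 270.1 CPM (5 of 6 genes detected in both, Pdgfra at 0 by the gate), and the epithelial keratin Krt18 had a UMI in 60.7% of its cells against 91.6%. In cKO 16 cells supplied 50% of the gate's UMIs, against 111 cells in control. All intervals below are 95% intervals for counting error only, and in pooled counts fewer expressing cells and less RNA per cell cannot be told apart except where shares of cells are given.

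All 9 members had lower values in cKO than in control epithelial cells, though the interval of Tlr3 included no difference. Of the 9 members, 8 were at least 2-fold lower, against 9.55% of the 14612 genes with at least 10 UMIs in this gate. The members' median log2 ratio of cKO to control was -2.79, while the median of all those genes was 0.50. In stromal cells 8 of 9 were at least 2-fold lower (background 9.04%), with a median of -1.83 against -0.046 for all genes. Muscle, dendritic and lymphoid cells each had 6 of 8 countable members at least 2-fold lower, against backgrounds of 5.73%, 6.45% and 4.62%. Their medians were -1.41, -2.38 and -1.87, against 0.10, 0.28 and 0.14 for all genes. Macrophages stood apart, with 1 of 9 members past 2-fold (background 5.56%) and a median of -0.50, against 0.21 for all genes. Even so, 6 of the 9 members had intervals wholly on the lower side there. No member was 2-fold higher in cKO in any gate. The members short of 2-fold were Tlr3 in epithelial, Irf1 in stromal, Ddx58 and Irf1 in muscle, and Irf1 and Irf9 in dendritic and lymphoid cells. Requiring a Krt18 UMI beside Epcam again gave 8 of 9 in the epithelium, while thinning to 1000 UMIs per cell left 2 in muscle and 2 in macrophages. Markers of other cells and of dissociation stress moved in these gates too. In lymphoid cells the dendritic list (6 and 7 of 8 genes detected, Flt3 at 0 by the gate) summed to 114 CPM in control and 1102 CPM in cKO, the stromal list to 57.9 and 261 CPM and the stress list to 747 and 1563 CPM. In muscle the dendritic list stood at 536 and 1154 CPM, the lymphoid list at 53.2 and 257 CPM and the epithelial list at 206 and 20.7 CPM. There the monocyte and neutrophil list stood at 1.36 and 52.1 CPM and the plasmacytoid dendritic list at 515 and 882 CPM. The endothelial list of muscle was 106 and 72.8 CPM and its stress list 7310.3 and 4268 CPM. The stress list was 2205 and 3496 CPM in dendritic, 3180.1 and 3763 CPM in stromal and 5679 and 5360.0 CPM in epithelial cells. In stromal cells the dendritic list stood at 129 and 45.8 CPM and the epithelial list at 32.4 and 11 CPM, both lower in cKO as the members were. The macrophage list was lower too, at 19.6 and 8.82 CPM. Higher in cKO stroma were the lymphoid (15.9 and 34.9 CPM), monocyte and neutrophil (4.21 and 8.54 CPM) and plasmacytoid dendritic lists (760 and 1549 CPM). So were the endothelial (38.6 and 52.9 CPM) and muscle lists (630 and 696 CPM). In epithelial cells the muscle list stood at 32.1 and 454 CPM, the monocyte and neutrophil list at 6.11 and 69.9 CPM and the endothelial list at 5.25 and 52.0 CPM. The part of these lists in the counts was not tested. Since the members were chosen for this contrast, these counts describe it and nothing further is read from them.

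**Figure D1:**
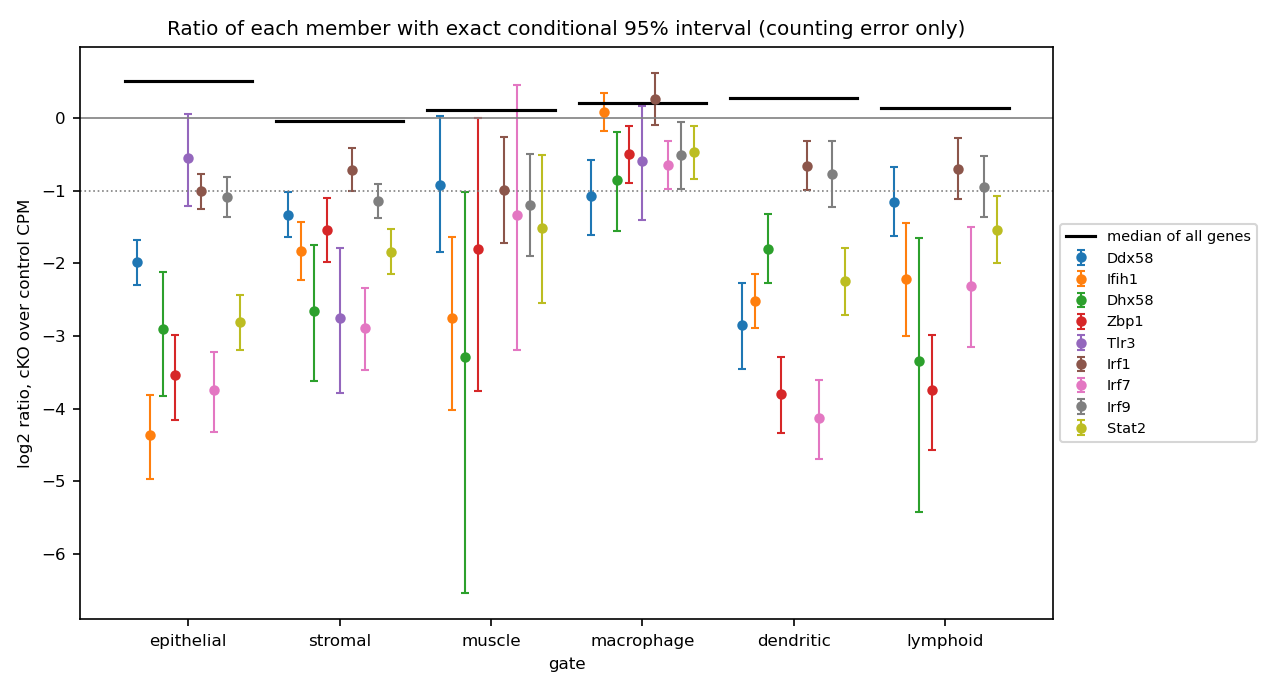
Log2 ratio of cKO to control CPM for each of the 9 members in the 6 gates, without a pseudocount, with exact conditional 95% intervals, a dotted line at -1 (2-fold lower) and black bars for the median of all genes with at least 10 UMIs. Points in the macrophage gate lie above -1 except Ddx58, while those of the epithelial, stromal, dendritic and lymphoid gates lie mostly below -1, and Tlr3 is shown only in the 3 gates where it could be counted.

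Ddx58 (ENSMUSG00000040296, chromosome 4, 40203773 to 40239828, minus strand), which encodes RIG-I, was 89.1 CPM (84.7 to 93.6, 1545 UMIs) in control epithelial cells and 22.6 CPM (18.2 to 27.7, 92 UMIs) in cKO, or 3.95-fold lower in cKO (95% interval 3.20 to 4.92). Control epithelial, macrophage and lymphoid cells shared a like level, with overlapping intervals (88.6 CPM in macrophages and 90.2 CPM in lymphoid cells), and dendritic cells had the highest value, 145 CPM, whose interval overlapped that of lymphoid cells. In cKO dendritic cells it stood at 20.1 CPM, 7.21-fold lower in cKO (95% interval 4.83 to 10.9). The difference was 2.52-fold (2.03 to 3.11) in stromal, 2.23-fold (1.60 to 3.08) in lymphoid and 2.11-fold (1.49 to 3.05) in macrophage-gated cells, which made Ddx58 the only member past 2-fold in macrophages. In muscle, with 20 and 23 UMIs, the interval of the fold ran from 0.984 to 3.59 and no difference was detectable at this depth.

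Ifih1 (ENSMUSG00000026896, chromosome 2, 62595798 to 62646255, minus strand), the MDA5 gene, had the largest epithelial ratio among the 9, with an interval that overlapped those of Irf7, Zbp1 and, at its low end, Dhx58. It was 136 CPM (131 to 142, 2360 UMIs) in control and 6.63 CPM (4.37 to 9.64, 27 UMIs) in cKO, 20.5-fold lower in cKO (95% interval 14.1 to 31.2). With every cell thinned to 1000 UMIs, 115 of 954 control cells (12.1%) and 0 of 135 cKO cells (which allows up to 2.22%) had an Ifih1 UMI. Without thinning a UMI was seen in 36.5% and 14.1%, where the median cell had 6302 and 14443 UMIs. Macrophages showed no such difference: Ifih1 was 186 CPM (167 to 206, 350 UMIs) there in control and 197 CPM (171 to 227, 193 UMIs) in cKO, with overlapping intervals. The gene was 5.74-fold lower in cKO (95% interval 4.45 to 7.42) in dendritic cells, from 307 CPM in control against 53.5 CPM in cKO, although 33.8% of the control UMIs came from 1 cell. Stromal and lymphoid cells differed by 3.55-fold (2.69 to 4.70) and 4.62-fold (2.71 to 8.01). In muscle 75% of the 28 control UMIs lay in 1 cell, and the log2 ratio of -2.70 became -1.58 without the top cell of each library.

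Dhx58 (ENSMUSG00000017830, chromosome 11, 100694884 to 100704271, minus strand), the LGP2 gene, was at its highest in dendritic cells of both libraries (in cKO with an interval overlapping that of macrophages), 147 CPM in control against 42.2 CPM in cKO, 3.48-fold lower in cKO (95% interval 2.51 to 4.81). In epithelial cells it was 23.9 CPM (21.7 to 26.3, 415 UMIs) and 3.19 CPM (1.70 to 5.46, 13 UMIs), 7.50-fold lower in cKO (95% interval 4.34 to 14.2). Of the 13 cKO UMIs 61.5% came from 1 cell, and without the top cell of each library the log2 ratio was -4.07 in place of -2.85. Lymphoid cells had 13 and 4 UMIs, a difference of 10.2-fold (3.14 to 42.8), and stromal cells 6.29-fold (3.35 to 12.3). Macrophages had 46.1 CPM in control against 25.6 CPM in cKO, 1.80-fold lower in cKO (95% interval 1.15 to 2.94). The muscle values rested on 9 and 2 UMIs, a ratio of 9.77-fold (2.02 to 92.9).

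Zbp1 (ENSMUSG00000027514, chromosome 2, 173206612 to 173218923, minus strand), the Z-form nucleic acid sensor, separated the libraries most in lymphoid, dendritic and epithelial cells. Lymphoid cells had 104 CPM (81.8 to 129.6, 77 UMIs) in control and 7.76 CPM (4.6 to 12.3, 18 UMIs) in cKO, 13.4-fold lower in cKO (95% interval 7.92 to 23.7). Dendritic cells had 293 CPM in control against 21.1 CPM in cKO, 13.9-fold lower in cKO (95% interval 9.78 to 20.1), and after thinning 12 of 42 control cells (28.6%) and 0 of 134 cKO cells (which allows up to 2.24%) had a UMI. Epithelial cells had 74.1 CPM in control against 6.38 CPM in cKO, 11.6-fold lower in cKO (95% interval 7.89 to 17.8). These 3 intervals overlapped one another. In stromal cells the difference was 2.91-fold (2.14 to 3.94), or -0.99 in place of -1.54 on the log2 scale if 10% of the gate's UMIs were cell-free RNA. Macrophages differed by 1.41-fold (1.08 to 1.85), from 112 CPM in control against 79.8 CPM in cKO, so cKO macrophages carried the highest Zbp1 level of any cKO gate. The muscle gate had 8 and 5 UMIs, with most of them in 1 cell of each library.

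Tlr3 (ENSMUSG00000031639, chromosome 8, 45395665 to 45411080, minus strand), the endosomal receptor, was the member with the fewest UMIs in control epithelial cells. It was 9.34 CPM (7.96 to 10.9, 162 UMIs) in control and 6.38 CPM (4.17 to 9.35, 26 UMIs) in cKO epithelial cells, a ratio whose interval (0.964 to 2.31) includes no difference. Its log2 ratio there was -0.53, but -1.83 when cells were weighted equally, past 2-fold and close to the -1.96 of Ddx58 on the same weighting. Macrophages had the highest level in both libraries, 30.8 CPM in control against 20.5 CPM in cKO, again with an interval that includes no difference. Stromal cells differed by 6.74-fold (3.47 to 13.8), from 30 and 14 UMIs, with 43.3% of the control UMIs in 1 of 12 cells. Muscle cells had 0 UMIs in both libraries, which allows up to 1.25% of thinned control cells and 0.680% of thinned cKO cells to carry one. Dendritic cells had 2 UMIs in each library and lymphoid cells 1 and 0, too few for a ratio.

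**Figure D2:**
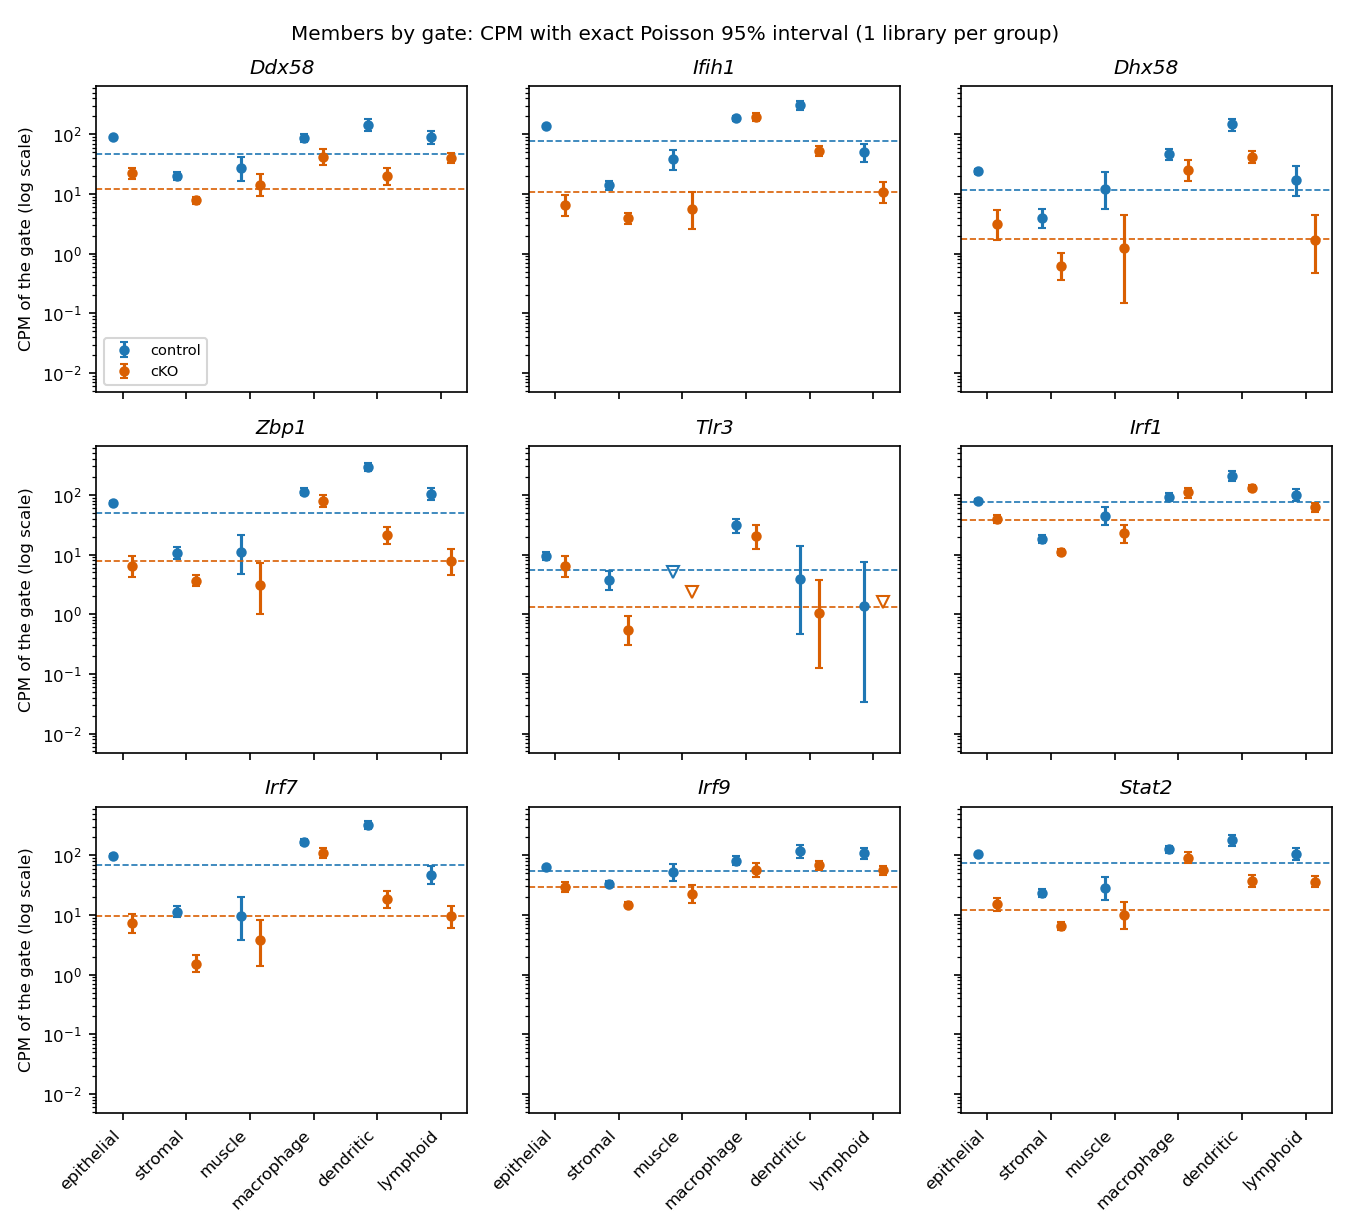
CPM of each member (log scale) by gate in control (blue) and cKO (orange), with exact Poisson 95% intervals, dashed lines for the cell-free level of each library, and open triangles at the upper limit where the count was 0. Control points lie above cKO points in most gates, the macrophage pairs lie close together, and stromal values of both libraries lie below the cell-free lines.

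Irf7 (ENSMUSG00000025498, chromosome 7, 141262706 to 141266481, minus strand), the amplifier of interferon production, had the largest ratio of the 4 factors in epithelial, stromal, dendritic and lymphoid cells. It was 98.7 CPM (94.0 to 103, 1711 UMIs) in control epithelial cells and 7.36 CPM (4.97 to 10.5, 30 UMIs) in cKO, 13.4-fold lower in cKO (95% interval 9.35 to 19.9). Dendritic cells had 324 CPM in control against 18.5 CPM in cKO, 17.5-fold lower in cKO (95% interval 12.2 to 25.9), and stromal cells 11.4 CPM in control against 1.54 CPM in cKO, 7.42-fold lower in cKO (95% interval 5.05 to 11.1). In control the order from dendritic to macrophage, epithelial, lymphoid and stromal cells had no overlap between neighbouring intervals, while in cKO macrophages stood alone at 108 CPM above dendritic, lymphoid and epithelial cells, whose neighbouring intervals overlapped. The macrophage difference was 1.56-fold (1.25 to 1.96), from 169 CPM. Thinned epithelial cells with an Irf7 UMI were 115 of 954 control cells (12.1%) and 1 of 135 cKO cells (0.741%). Lymphoid cells differed by 4.97-fold (2.84 to 8.89), and in muscle 7 and 6 UMIs gave an interval of 0.729 to 9.12.

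Stat2 (ENSMUSG00000040033, chromosome 10, 128270559 to 128292849, plus strand), a subunit of ISGF3, was 106 CPM (101 to 111, 1839 UMIs) in control epithelial cells and 15.2 CPM (11.7 to 19.5, 62 UMIs) in cKO, 6.97-fold lower in cKO (95% interval 5.41 to 9.13). It was detected in 140 of 954 control cells (14.7%) and 0 of 135 cKO cells (which allows up to 2.22%) after thinning. Dendritic cells had 178 CPM in control against 37.5 CPM in cKO, 4.74-fold (3.44 to 6.54), and stromal cells 23.5 CPM in control against 6.57 CPM in cKO, 3.58-fold (2.89 to 4.43). Lymphoid and muscle cells differed by 2.90-fold (2.10 to 4.0) and 2.85-fold (1.42 to 5.84). In macrophages it was 126 CPM in control against 91.0 CPM in cKO, 1.38-fold (1.08 to 1.78).

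Irf9 (ENSMUSG00000002325, chromosome 14, 55603571 to 55610030, plus strand), the DNA-binding subunit of ISGF3, differed less than Stat2 in epithelial, stromal and dendritic cells, without overlap of the intervals, and in lymphoid cells with overlap. It was 63.0 CPM (59.3 to 66.9, 1093 UMIs) and 29.7 CPM (24.6 to 35.5, 121 UMIs) in epithelial cells, 2.12-fold lower in cKO (95% interval 1.76 to 2.58). The thinned shares there had overlapping intervals, 61 of 954 control cells (6.39%) and 9 of 135 cKO cells (6.67%), and on thinned counts the log2 ratio of -1.08 was 0.058. The fold was 2.21-fold (1.88 to 2.59) in stromal, 2.29-fold (1.41 to 3.72) in muscle, 1.92-fold (1.44 to 2.56) in lymphoid, 1.71-fold (1.24 to 2.34) in dendritic and 1.43-fold (1.04 to 1.97) in macrophage-gated cells. Its levels were also the flattest across gates, from 32.8 CPM in stromal to 117 CPM in dendritic cells of control and from 14.9 CPM to 68.4 CPM in the same gates of cKO. Irf9 overlaps Rnf31 on the same strand in the annotation, so reads in the shared part cannot be assigned with certainty.

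Irf1 (ENSMUSG00000018899, chromosome 11, 53770014 to 53778374, plus strand), the interferon gamma-responsive factor, had the smallest ratio of the 4 factors in epithelial, stromal, dendritic and lymphoid cells, with intervals that overlapped those of Irf9. It was 80.3 CPM (76.2 to 84.7, 1393 UMIs) in control epithelial cells and 40.0 CPM (34.1 to 46.6, 163 UMIs) in cKO, 2.01-fold lower in cKO (95% interval 1.71 to 2.38), which lies at the 2-fold line. Stromal, dendritic and lymphoid cells differed by 1.64-fold (1.33 to 2.01), 1.58-fold (1.24 to 1.99) and 1.63-fold (1.21 to 2.17). In macrophages the value was higher in cKO, 109 CPM (89.7 to 132, 107 UMIs) against 91.2 CPM (78.1 to 106, 172 UMIs), with overlapping intervals, and its sign was not stable. The log2 ratio of 0.26 became -0.23 with cells kept in every gate they passed, -0.12 with cells weighted equally and 0.67 when thinned. Dendritic cells had the highest level in both libraries (in cKO overlapping that of macrophages), 205 CPM in control against 130.1 CPM in cKO. In muscle it was 45 CPM in control against 22.6 CPM in cKO, 1.99-fold (1.20 to 3.28).

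The cell-free RNA of the control library was itself rich in these transcripts, from 5.43 CPM for Tlr3 to 76.8 CPM for Ifih1. In cKO cell-free RNA, Tlr3 and Ifih1 had 1.31 and 10.9 CPM. The highest there were Irf1 at 38.1 CPM and Irf9 at 28.9 CPM, against 75.6 and 55.5 CPM in control. All 9 members lay below the cell-free level in stromal cells of both libraries. In cKO, 6 of 9 lay above it in epithelial and 4 of 9 in lymphoid cells. Those below it in cKO epithelial cells were Ifih1 (6.63 against 10.9 CPM), Zbp1 (6.38 against 7.88 CPM) and Irf7 (7.36 against 9.63 CPM). These genes lay just below it in cKO lymphoid cells too (10.8, 7.76 and 9.48 CPM). How much cell-free RNA reached control cells outside the epithelial gate was measured with Ltf, an epithelial transcript chosen after its values were seen. Ltf had 612 CPM in cell-free barcodes of control. It was 2.85 CPM in control stromal cells, 0.465% of the cell-free level, and 1.04% in macrophage, 0.638% in dendritic, 0.879% in lymphoid and 4.90% in muscle-gated cells. At the upper limit of these shares, cell-free RNA would make up at most 4.18% of any member's control level in stromal cells, 1.51% in macrophages, 1.09% in dendritic and 3.47% in lymphoid cells. In muscle, the shallowest gate with medians of 1504 and 1570 UMIs per cell, it would make up to 53.0% of Irf7, 33.8% of Zbp1 and from 7.03% to 19.0% of the other 6 countable members.

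The members were next counted cell by cell at 1000 UMIs. A control epithelial cell carried a mean of 0.776 of the 9 members and a cKO epithelial cell 0.207. Cells with at least 3 members were 73 of 954 in control (7.65%) and 0 of 135 in cKO, which allows up to 2.22%. In dendritic cells they were 11 of 42 (26.2%, 13.9 to 42) and 0 of 134. Macrophages had such cells in both libraries, 22 of 225 in control and 6 of 109 in cKO, and the shares without any member were 56% and 57.8%. In stromal cells 87.8% of control and 95.1% of cKO cells carried none. In muscle 91.7% of control and 96.4% of cKO cells carried none. No gate is known to lack these genes altogether, so none serves as a background, and stromal shares are given for comparison only. In stromal cells thinned to 1000 UMIs the per-gene shares ran from 0.326% (Dhx58) to 4.24% (Irf9) in control and from 0% (Tlr3) to 1.65% (Irf9) in cKO, where the median cell had 11763 and 15651 UMIs before thinning.

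**Figure D3:**
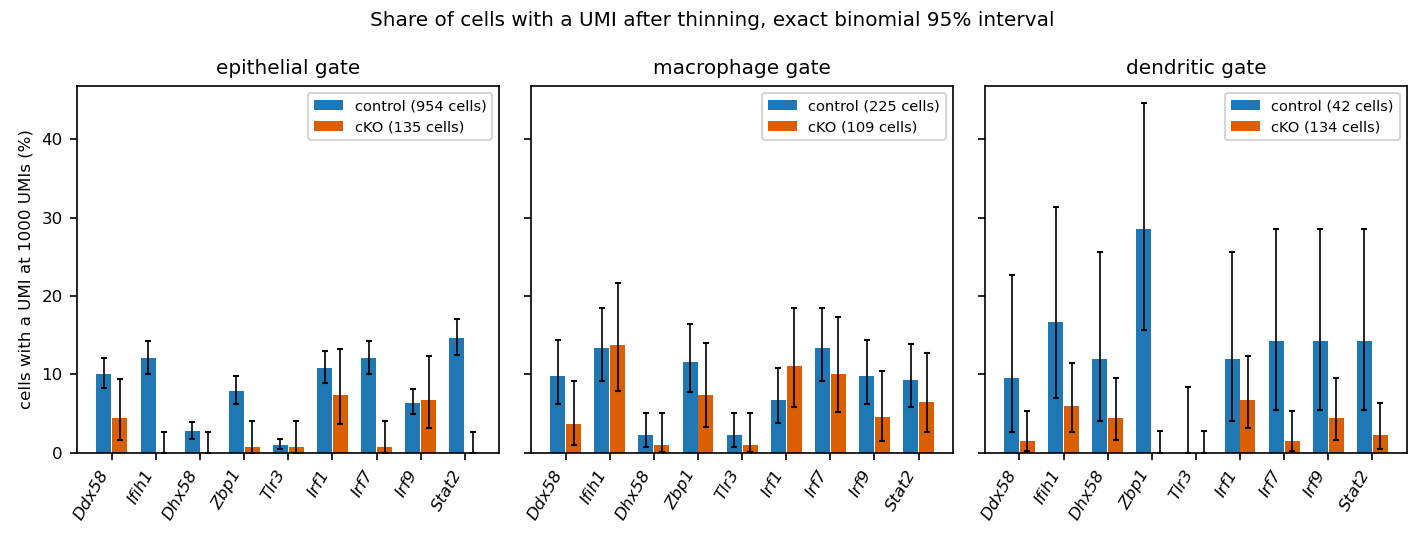
Percentage of cells with at least 1 UMI of each member after thinning to 1000 UMIs, in control (blue) and cKO (orange), with exact binomial 95% intervals, for the epithelial, macrophage and dendritic gates. Epithelial bars of Ifih1, Dhx58 and Stat2 are at 0 in cKO, while the macrophage bars of both libraries have overlapping intervals for all 9 members.

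Interferon beta itself, Ifnb1, was detected in 79 control epithelial cells (889 UMIs) and in none of the cKO epithelial cells, and it had 0 UMIs in the stromal, muscle, dendritic and lymphoid gates of both libraries. Within control, all 9 members were higher in the Ifnb1 cells than in the other 882 epithelial cells, and each interval of the ratio lay above 1, as it did for 8.54% of the 13540 genes, Ifnb1 left out, with at least 10 UMIs. Ifih1 stood out, with 450.1 CPM in cells with Ifnb1 and 77.6 CPM in the others, 5.80-fold (5.35 to 6.30). Zbp1 had 173 CPM in cells with Ifnb1 and 55.7 CPM in the others, 3.11-fold (2.77 to 3.48). The other members ran from 1.28-fold for Irf9 to 2.40-fold for Tlr3. These cells held 15.7% of the gate's UMIs and 51.9% of its Ifih1 UMIs, and they were deep, with a median of 17602 UMIs against 5770.5. At 1000 UMIs per cell, an Ifih1 UMI was found in 36 of 79 Ifnb1 cells (45.6%) and 79 of 875 others (9.03%), whereas Irf7 was found in 15.2% and 11.8%. At this equal depth the intervals of the shares were apart for Ddx58, Ifih1, Zbp1 and Stat2 and overlapped for Dhx58, Tlr3, Irf1, Irf7 and Irf9.

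Setting the Ifnb1 cells aside left an epithelial difference between the libraries for most members and lowered the fold of all 9. This had to follow, since all 9 were higher in the cells removed and no cKO epithelial cell had an Ifnb1 UMI. The Ifih1 fold of 20.5 (14.1 to 31.2) became 11.7, with overlapping intervals. The other control epithelial cells had 11.7-fold more Ifih1 than cKO epithelial cells (8.0 to 17.8), 11.5-fold more Irf7 (8.04 to 17.2) and 8.73-fold more Zbp1 (5.91 to 13.4). Without them 7 of 9 members were at least 2-fold lower in cKO, and Irf1 and Tlr3 were not.

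**Figure D4:**
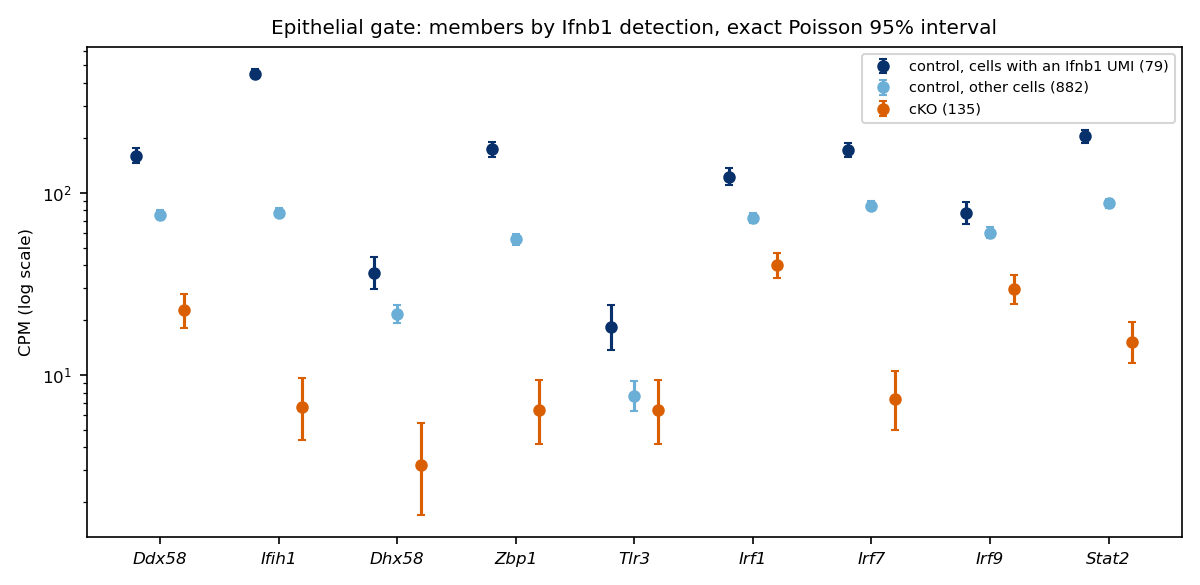
CPM (log scale) of the 9 members in control epithelial cells with an Ifnb1 UMI (dark blue, 79 cells), other control epithelial cells (light blue, 882 cells) and cKO epithelial cells (orange, 135 cells), with exact Poisson 95% intervals. Cells with Ifnb1 are highest for every member, and the interval of the other control cells overlaps that of cKO only for Tlr3.

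Macrophages were the gate with the highest cKO levels of most members. Ifih1, Zbp1, Tlr3, Irf7 and Stat2 had their highest cKO level there, with no overlap with the next gate. These intervals cover counting error only. The top cKO macrophage for each gene held 21.2% (Ifih1), 21.8% (Zbp1), 25% (Tlr3), 18.9% (Irf7) and 11.2% (Stat2) of its UMIs. The macrophage gate, 2.22% of cKO cells, held 27.7% of all Ifih1 and 23.7% of all Irf7 UMIs of the cKO cells. In control it held 9.11% and 10.8%, and the epithelial gate 61.4% and 57.8% there against 3.87% and 6.70% in cKO. Cells of no gate or of several held the largest cKO share, 34.4% and 46.7%, and 20.7% and 21.3% in control. In cKO macrophages 8 Ifnb1 UMIs were found in 2 cells, and in control macrophages 3 UMIs in 2 cells. Those 2 cKO cells carried 41 of the 193 Ifih1 UMIs, and the single cKO macrophage with the most Ifih1 UMIs also had 41. Without Ifnb1 cells the Ifih1 log2 ratio in macrophages was -0.21 in place of 0.09, and that of Ddx58 -1.36 in place of -1.07. The dissociation-stress list, all 8 genes of which were detected, summed to 3315 CPM in control and 8298 CPM in cKO macrophages, and its part in the result was not tested. The monocyte and neutrophil list stood at 113 and 112 CPM in macrophages, with S100a9 at 0 in both and Ly6c2 at 0 in cKO.

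In dendritic cells the plasmacytoid marker list summed to 519.9 CPM in control, where Siglech, Ccr9 and Ly6d were at 0, and to 319 CPM in cKO, where all 5 were detected. Of that list Bst2, itself an interferon target, was 311 CPM in control and 55.0 CPM in cKO. The lymphoid marker list was at 0 in control dendritic cells and at 369.8 CPM in cKO, mostly Il2rb. In the same gate the stromal list was 95.8 and 284 CPM in control and cKO, the epithelial list 104 and 37.5 CPM, the monocyte and neutrophil list 15.6 and 77.2 CPM and the endothelial list 23.5 and 76.1 CPM. The control gate had only 42 cells. The part of these in the dendritic differences was not tested.

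To place the members in their pathway, 51 other genes of RNA sensing and interferon signalling were read in the same way. In epithelial cells 17 of the 49 with at least 10 UMIs were at least 2-fold lower in cKO and 7 at least 2-fold higher, where all genes gave 9.55% and 32.1%. Those lower were led by the antiviral effectors Ifit3 (173 CPM in control, 0.491 CPM in cKO), Rsad2 (432 CPM in control, 10.3 CPM in cKO) and Ifit1 (362 CPM in control, 11.3 CPM in cKO). Those higher were led by Irf8 (9.69 CPM in control, 178 CPM in cKO), Stat4 (1.27 CPM in control, 16.2 CPM in cKO) and Cgas (1.90 CPM in control, 17.9 CPM in cKO), which encode a factor of myeloid cells, a factor of lymphocytes and a sensor of cytosolic DNA. The lower and higher counts were 12 and 1 of 47 in stromal, 12 and 5 of 44 in muscle, 16 and 1 of 44 in dendritic, 13 and 0 of 46 in lymphoid and 9 and 2 of 47 in macrophage-gated cells. The all-gene share at least 2-fold higher was 6.64%, 9.39%, 18.9%, 10.4% and 13.0% in the same order.

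Of the 42 pathway genes with a ratio in every gate, 7 were at least 2-fold lower in all 6, macrophages included, against 0.219% of the 7765 genes with at least 10 UMIs in each gate: Eif2ak2 (the kinase PKR), Ifit1, Ifit2, Ifit3, Isg15 (a ubiquitin-like modifier), Rsad2 and Usp18 (a brake on the interferon receptor). In macrophages these were led by Ifit2 (572 CPM in control, 136 CPM in cKO), Ifit1 (1401 CPM in control, 357 CPM in cKO) and Ifit3 (322 CPM in control, 96.1 CPM in cKO), and the genes at least 2-fold higher there were Ifngr2 (95.5 CPM in control, 200.4 CPM in cKO), a receptor chain for interferon gamma, and Stat4 (7.43 CPM in control, 18.4 CPM in cKO). Ifit1, Ifit3 and Rsad2 also led in stromal cells, where Ifit1 was 119 CPM in control, 1.38 CPM in cKO, and in lymphoid cells, where it was 303 CPM in control, 7.33 CPM in cKO. Dendritic cells were led by Cxcl10 (659 CPM in control, 6.69 CPM in cKO), a chemokine, with Ifit2 and Ifit1, and muscle by Rsad2 (181 CPM in control, 1.26 CPM in cKO), Ifi44 (26 and 0 UMIs, at least 18.8-fold lower with 3 counts per library as the floor, and with a counting interval that starts at 14.2-fold) and Ifit1. Irf8 was the gene at least 2-fold higher in stromal and in dendritic cells, and muscle was led by Ifngr1, Irf8 and Stat5a, the last from 4 and 42 UMIs.

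Other genes of the IRF and STAT families did not all share the members' direction. Irf3 is present before any interferon signal and acts downstream of MAVS. It had log2 ratios of 0.21 in epithelial, 0.21 in stromal, 0.23 in macrophage, 0.38 in dendritic, -0.20 in lymphoid and -1.12 in muscle-gated cells. Irf8 was higher in cKO in all 6 gates, from 0.80 in lymphoid to 4.20 in epithelial cells, where its 725 cKO UMIs lay in 49 cells with 10.8% in the top cell. In epithelial cells the macrophage marker list (5 of 6 genes detected in each library, C1qa at 0 by the gate) summed to 69.0 CPM in control and 28.2 CPM in cKO, but its genes went different ways. Cd68 was 67.1 and 13.5 CPM, whereas Csf1r was 0.923 and 12.5 CPM and C1qb and C1qc were also higher in cKO, on at most 7 UMIs a library. The plasmacytoid list summed to 229.6 and 246 CPM with Siglech at 0 in both, Tcf4 at 28.5 and 112 CPM and Bst2 at 186 and 113 CPM. The lymphoid list, of which 5 and 4 of 7 genes were detected with Cd3e and Ncr1 at 0 by the gate, summed to 12.9 and 266 CPM. Their part in the Irf8 and Stat4 values was not tested. Stat3 and Ifngr1 were the other pathway genes on the higher side in all 6 gates, which makes 3 of 42 against 11.2% of all genes, Stat3 by as little as 0.052 in dendritic cells, where centring on the median gene (a shift of 0.25) turns its sign, as the shift of 0.41 does for Ifngr1 and Irf3 in epithelial cells. The receptor chains Ifnar1 and Ifnar2 had epithelial log2 ratios of 0.38 and 0.89, the kinases Jak1 and Tyk2 0.76 and -0.35, and the adaptor gene Mavs 1.27, to be read against the all-gene median of 0.50 in this gate.

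**Figure D5:**
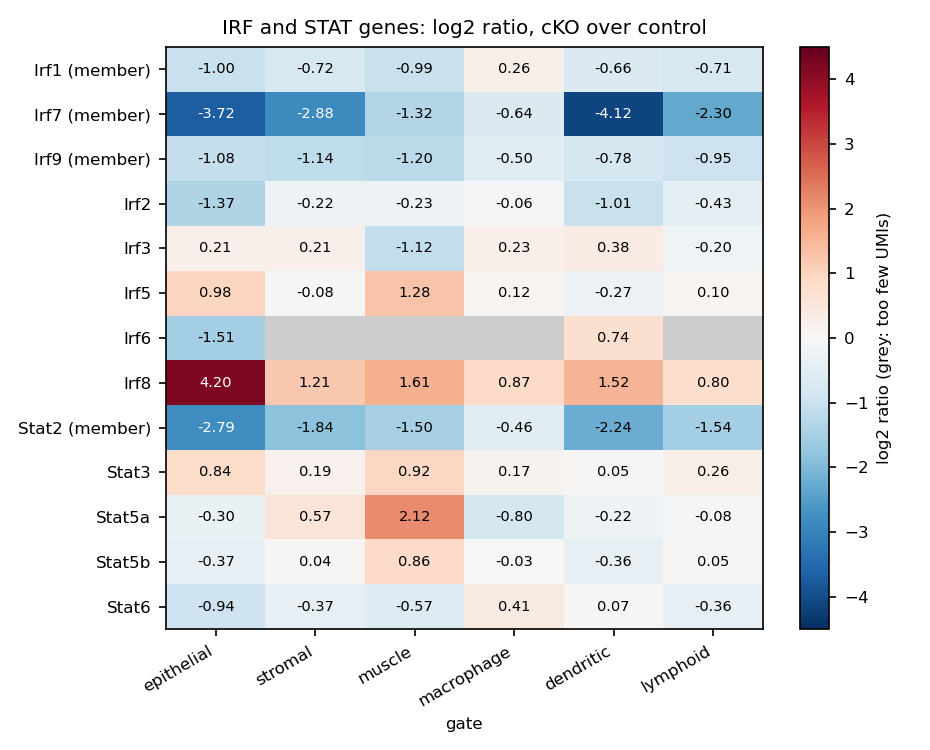
Log2 ratio of cKO to control CPM (pseudocount 0.5 UMI) of IRF and STAT genes by gate, blue for lower and red for higher in cKO, grey where UMIs were too few. Irf7 is the deepest blue row in the epithelial, stromal, dendritic and lymphoid gates, Irf8 is red in all 6 gates, and the macrophage column is pale for the members. Not all genes of the 2 families are drawn.

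Across the 12 gate and library values, each member's log2(CPM + 1) profile was set against 11500 genes with at least 200 UMIs, and the nearest genes outside the 9 members are named. These points come from 2 libraries and share their depth and composition, so the correlations are descriptions. Stat2 was closest to Ddx60 (r = 0.99), Xaf1 and Irgm1, Irf7 to Rnf213 (r = 0.98), Oasl2 and Xaf1, and Zbp1 to Xaf1 (r = 0.98), Rnf213 and Daxx. Ifih1 was closest to Oas1a (r = 0.98), Isg15 and Rnf213, Dhx58 to Usp18 (r = 0.96), Oas3 and Isg15, and Ddx58 to Samd9l (r = 0.97), Ddx60 and AW011738. Irf1 was closest to the immunoproteasome genes Psmb9 (r = 0.97) and Psmb8 and to the proteasome activator Psme1, and Irf9 to Dtx3l (r = 0.97), Herc6 and Tap1. Tlr3 differed, with Lgals3 (r = 0.94), Clta and Atp6v1b2 as its nearest genes. Among the members the highest pair was Zbp1 with Irf7 (r = 0.97) and the lowest Tlr3 with Irf9 (r = 0.32).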

How the data were processed

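Whole uteri were dissociated with collagenase and DNase and profiled by droplet 3′ single-cell RNA sequencing, per the labels' protocols. The deposited values were raw UMI counts per gene and barcode, unfiltered. Per the file headers they came from Cell Ranger 4, whereas the submitters' processing notes name Cell Ranger 6.1.1 and mm10. Whether counting used strand is not given in the sources used here, and Dhx58, Tlr3, Irf1 and Irf7 have an annotated gene on the opposite strand. Gene positions are from GENCODE M21 (GRCm38), matched by identifier.

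Counts were summed per gate and library and expressed as CPM (Python 3.11.15, SciPy 1.17.1). CPM has exact Poisson intervals, ratios exact conditional binomial intervals and shares Clopper-Pearson intervals, at 95%. Log2 ratios carry a pseudocount of 0.5 UMI. No p-value is given, since cells are not replicates. A count of 0 allows up to 3 counts, and no ratio was formed where both libraries had at most 3. Limits printed beside shares of 0 use these 3 counts. Clopper-Pearson upper limits, as drawn in the figure, are higher, 2.70% in place of 2.22% for 0 of 135 cells. Barcodes of no more than 100 UMIs served as cell-free RNA (730412 in control, 812108 in cKO). No doublet caller was run, and leaving out cells of several gates removes only doublets in which genes of both gates were counted. The calculation was tested on simulated data. Members, gates and lists were chosen with earlier results of these data known. All 9 members are named in every gate. Of the pathway list, the 3 lowest and 3 highest past 2-fold by the interval limit nearer 1 are named, and other family members named with them were chosen after their values were seen. Of that list 1 gene of the pathway list is counted but not reported here by name.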

Additional observations from a re-analysis of the deposited data

How the results depend on the processing

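The 51 ratios were recomputed under 10 other settings and under 3 that were added after the data were seen: cell-free RNA removed, cells with an Ifnb1 UMI left out (18 ratios) and a Krt18 UMI required beside Epcam (9 ratios). Each ratio had 9 to 13 such values. The count of members at least 2-fold lower kept within 1.5 times of its value in epithelial (6 to 8), stromal (7 to 9), dendritic (6 to 8) and lymphoid cells (5 to 7) under every one that was run there. In muscle it was 2 in place of 6 with cells thinned to 1000 UMIs. In macrophages it was 0 in place of 1 with cells kept in every gate they passed or gated at 2 UMIs, and 2 when thinned. Irf9 in epithelial cells turned from -1.08 to 0.058 when thinned, and no other ratio past 2-fold changed sign. Thinning weights cells equally and keeps few UMIs, and under it 19 of the 43 ratios with a value left their interval. Requiring Krt18 moved 2 of 9 and weighting cells equally 6 of 51. The epithelial ratios of Ifih1 and Irf7 stayed between -5.97 and -3.52 and between -4.13 and -3.50. Centring on the median gene shifted epithelial ratios by 0.41 and dendritic ones by 0.25, further from 0 for members that were lower. The background share of genes at least 2-fold lower depends on the UMI minimum: in stromal cells it was 4.69% with 50 UMIs and 16.0% with no filter. No paired analysis was possible because each group is 1 library.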
